A study of Homo sapiens with 36 samples.

Results

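The collagen genes of WiT49 cells, an established line of anaplastic Wilms tumour (a childhood kidney tumour), were followed under actinomycin D (actD). This antibiotic inserts into DNA and can block RNA polymerases, and how far it did so at the dose used was not measured here. The members were all protein-coding genes of GENCODE release 29 whose symbol has the form COL, a type number, A and a chain number. 44 of the 58219 genes in the RNA count tables met this rule, and all 44 were listed in each RNA and each footprint table. They were split into 11 fibrillar collagens, 6 basement membrane collagens (type IV) and 27 other collagens. Cells received 2 nM actD or its vehicle, DMSO, for 6 h or 72 h. In the 2-week arm the cells went through 2 cycles of 7 days, with exposure on 3 days of a cycle and unsupplemented medium on the other 4 days. Each condition has 3 RNA-seq libraries and 3 libraries of ribosome footprints, the short RNA fragments that ribosomes protect while translating, so 36 libraries make up 12 groups. All groups come from this 1 cell line, so there is no other genetic background, and nothing in the labels says whether the 3 libraries of a group came from separate cultures; p-values therefore measure the spread between these libraries, which may be technical.

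Collagens are trimeric proteins of the extracellular matrix built from left-handed chains that wind into a triple helix. Fibrillar collagens form the banded fibres that bear tension, type IV collagen forms the sheet-like network under epithelia, and the remaining types coat fibrils, form beaded filaments or short-chain networks, or span the cell membrane. In the kidney, a type IV network of COL4A1 and COL4A2 chains is laid down first and is later replaced in the filtration barrier by a network of COL4A3, COL4A4 and COL4A5 chains. Chains of a type assemble in fixed combinations, so the balance between partner genes is a property of its own.

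RNA libraries held between 40221994 and 69240041 counts, and footprint libraries between 152556 and 1281039 counts, of which protein-coding genes took 2.12% to 40.4%. At 2 weeks the RNA sample titles and the library names contradict each other on which libraries received actD. The library names were followed, giving the groups "named actd" and "named dmso", and every 2-week RNA direction turns around if the titles are right. The 72 h RNA libraries expressed IGF2 (between 1481 and 1815 CPM, the count of a gene divided by the scaled library total) and WT1, with KRT8, KRT18 and VIM. SIX2, PAX2, EYA1 and SALL1, markers of the nephron progenitor, stayed under 1 CPM. Of the fibroblast markers, PDGFRB (37.9 to 81.5 CPM), LUM (10.5 to 16.0 CPM) and DCN (4.03 to 16.1 CPM) were present and THY1 stayed under 0.26 CPM. Of the endothelial markers, CDH5 had no count at 72 h, PECAM1 reached at most 0.037 CPM and KDR lay between 0.499 and 4.37 CPM. The leukocyte markers CD3E (no count), PTPRC and CD14 stayed under 0.67 CPM. Of the muscle markers, MYOD1, MYOG and ACTC1 had no count and DES lay between 6.27 and 9.58 CPM. Of the cartilage markers, SOX9 was present (6.00 to 14.4 CPM at 72 h), ACAN stayed under 0.43 CPM and COMP had no count at 72 h. Replicate libraries did not vary alike for collagens. At 72 h, library 3 was the highest of its arm for 22 of 31 tested collagen genes in both arms (71.0%, against 40.0% of all genes tested). The share of RNA counts in protein-coding genes at 72 h was 54.3% to 62.4% with actD and 63.2% to 67.6% with DMSO, without overlap, and its part in the results below was not tested.

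Levels between genes are given as CPM per kilobase of exon, with CPM scaled by TMM, which corrects library totals for differences in RNA composition. The exon length of a gene merges the exons of all its annotated transcripts, and levels between genes depend on it. This length was 19293 bases for COL4A2 and 14738 for COL4A1, against 6811 for COL3A1 and 6664 for COL2A1. In the 72 h DMSO libraries the collagens were led by COL3A1, the single chain of type III collagen of pliable tissues, at 159.7 ± 20.8 CPM per kilobase (SD, n = 3). No other collagen reached it in any of the 3 libraries, where COL3A1 lay between 136 and 172. COL2A1, the chain of cartilage type II collagen, followed at 78.8 ± 16.5. COL11A1, a chain of type XI collagen that helps fibrils to start, lay at 46.5 ± 27.2, COL1A1 of type I collagen at 45.2 ± 6.56 and COL5A2 of type V collagen at 36.5 ± 9.60. COL18A1, a collagen of basement membranes that carries heparan sulfate and contains endostatin, reached 26.2 ± 4.62, and COL6A1, of the beaded filaments of type VI collagen, 17.5 ± 6.01. COL4A1 (11.9 ± 2.15), COL5A1 (11.7 ± 3.17), COL4A2 (11.4 ± 2.01) and COL12A1 (11.4 ± 1.57), which coats fibrils, were next to each other. From COL2A1 to COL12A1 each gene overlapped its neighbour in the order, so this order is not resolved by 3 libraries. The next break came between COL12A1 and COL6A2 (4.42 ± 1.23), and another after COL14A1 (2.09 ± 1.03). In all, 17 of the 44 genes exceeded 1 CPM per kilobase, 11 exceeded 10 and 18 stayed under 0.1.

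**Figure D1:**
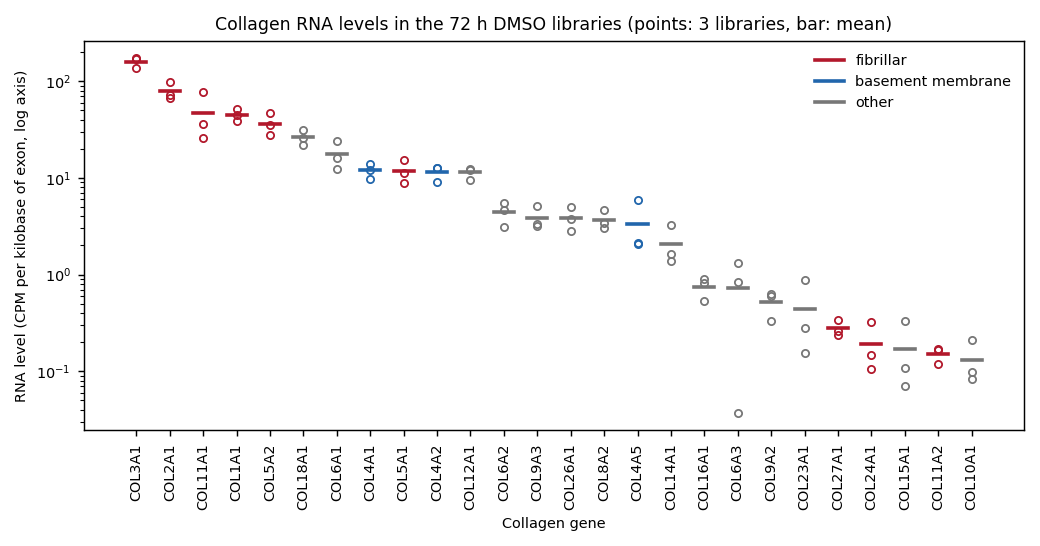
RNA level of each collagen gene above 0.1 CPM per kilobase in the 72 h DMSO libraries, on a log axis; open circles are the 3 libraries, bars their means, and colours the 3 classes. COL3A1 stands above all others, 6 fibrillar genes lie above 10, and COL6A3 spreads from 0.0372 to 1.30 between libraries.

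The fibrillar class supplied 78.7% of the summed level at 72 h, type IV 5.56% and the other collagens 15.8%. The same sums in the 6 h DMSO libraries were 71.3%, 6.04% and 22.7%. As shares of collagen counts, not divided by length, these classes took 74.0%, 11.1% and 14.9% in the 72 h DMSO libraries. At 6 h the leading genes were COL3A1 (177.4 ± 36.1 CPM per kilobase), COL2A1 (67.2 ± 1.94), COL1A1 (49.96 ± 4.32), COL18A1 (47.2 ± 3.12) and COL5A2 (40.8 ± 11.2), and COL11A1 was at 16.7 ± 3.34. In the 2-week libraries named dmso, COL3A1 stood at 567.9 ± 134 and COL2A1 at 141.9 ± 29.9. COL3A1 took 0.128% to 0.207% of protein-coding counts in the 6 h DMSO libraries, 0.136% to 0.183% in the 72 h DMSO libraries and 0.460% to 0.783% in the 2-week libraries named dmso. The time points are separate tables, so culture time and preparation cannot be told apart in that difference.

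COL1A2, the usual partner of COL1A1 in type I collagen, had a count of 0 in all 36 libraries. In the 72 h DMSO libraries, 0 counts allow a level of up to 0.0434 to 0.0801 CPM (3 counts per library, for counting error only), while COL1A1 stood at 380, 509 and 442 CPM. COL1A1 RNA was thus measured without any count of its partner. COL6A5 also had no count in any RNA library. COL13A1, COL21A1 and COL28A1 had none in the 6 h DMSO libraries and at most 12 counts in any 72 h DMSO library. The genes that passed the filter on low counts and were tested numbered 37 at 6 h, 31 at 72 h and 34 at 2 weeks for RNA, and 4, 11 and 9 for footprints.

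Type IV genes lie in head-to-head pairs, and each pair is read outward from a shared start region. This arrangement is shown for COL4A1 with COL4A2 and for COL4A5 with COL4A6, pairs that differ in how evenly their genes are expressed. COL4A1 (chr13:110148963-110307233, minus strand) and COL4A2 (chr13:110305812-110513209, plus strand) overlap at their starts in the GENCODE annotation of hg38. In RefSeq, on GRCh38.p14, their start sites are 127 bases apart. The windows below run 5′ to 3′ on each gene's own strand, from 250 bases before to 50 bases after its start. Of the 44 members, 32 have such a window in the table used. Capitals mark matches to 3 motifs that do not overlap each other here: the CCAAT box (CCAAT, read as ATTGG on the opposite strand), the GC box (GGGCGG, read as CCGCCC on the opposite strand) and the TATA box (TATAAA, read as TTTATA on the opposite strand).
COL4A1, chr13:110307108-110307407, minus strand: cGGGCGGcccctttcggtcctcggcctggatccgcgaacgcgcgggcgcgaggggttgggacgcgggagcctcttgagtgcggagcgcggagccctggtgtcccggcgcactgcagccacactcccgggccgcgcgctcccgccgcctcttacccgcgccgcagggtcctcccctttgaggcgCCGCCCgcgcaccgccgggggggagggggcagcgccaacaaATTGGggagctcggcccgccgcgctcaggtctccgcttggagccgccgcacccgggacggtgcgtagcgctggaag
COL4A2, chr13:110307034-110307333, plus strand: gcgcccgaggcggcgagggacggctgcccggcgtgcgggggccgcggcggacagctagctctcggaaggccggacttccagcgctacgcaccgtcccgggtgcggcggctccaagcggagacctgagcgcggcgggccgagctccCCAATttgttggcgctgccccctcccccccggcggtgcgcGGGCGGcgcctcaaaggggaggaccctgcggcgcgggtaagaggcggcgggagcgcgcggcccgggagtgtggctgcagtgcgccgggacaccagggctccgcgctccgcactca
COL4A5, chrX:108439588-108439887, plus strand: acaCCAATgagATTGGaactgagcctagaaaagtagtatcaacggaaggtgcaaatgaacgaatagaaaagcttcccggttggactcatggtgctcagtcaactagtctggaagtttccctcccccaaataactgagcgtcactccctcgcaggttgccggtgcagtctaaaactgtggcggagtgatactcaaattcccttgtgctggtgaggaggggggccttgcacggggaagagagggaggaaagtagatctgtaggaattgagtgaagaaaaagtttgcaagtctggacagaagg
COL4A6, chrX:108439409-108439708, minus strand: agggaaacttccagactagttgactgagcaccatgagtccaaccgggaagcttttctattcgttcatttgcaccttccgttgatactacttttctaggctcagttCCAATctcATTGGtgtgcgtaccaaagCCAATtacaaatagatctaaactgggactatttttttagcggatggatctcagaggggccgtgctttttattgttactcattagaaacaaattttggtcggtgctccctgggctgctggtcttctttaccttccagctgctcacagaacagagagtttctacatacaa
The COL4A1 and COL4A2 windows share 226 bases, hold 45 CpG dinucleotides each and 2 and 1 matches to GGGCGG, and share 1 CCAAT match. The COL4A5 window shares 121 bases with the nearer of the COL4A6 windows. They hold 8 and 7 CpG and 2 and 3 CCAAT matches, with no match to GGGCGG. None of the 4 windows matches TATAAA. The windows of COL4A3 and COL4A4, not printed here, hold 24 and 29 CpG and 2 and 0 GGGCGG matches. They have no CCAAT or TATAAA match. The other COL4A6 window shares 0 bases with the COL4A5 window and holds 5 CpG and 1 GGGCGG match. Any bearing of these windows on RNA levels was not tested. Among all 35116 windows of 300 bases, 34.6% hold a CCAAT match, 45.0% a GGGCGG match and 11.5% a TATAAA match, and the median window holds 14 CpG.

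COL4A1 and COL4A2 RNA stayed near parity per kilobase of merged exons. Their ratio was 0.997 ± 0.0702 with DMSO and 0.946 ± 0.0401 with actD at 6 h, and 1.05 ± 0.0809 and 1.10 ± 0.0424 at 72 h (SD, n = 3), with overlapping groups. At 2 weeks it was 0.867 ± 0.0129 (named actd) and 0.771 ± 0.0225 (named dmso), without overlap. The COL4A5 and COL4A6 pair, whose chains meet in the capsule around the glomerulus, was uneven. At 72 h with DMSO, COL4A5 stood at 3.36 ± 2.17 CPM per kilobase and COL4A6 at 0.0540 ± 0.00781, and the ratio in single libraries ran from 34.5 to 104. COL4A4 (0.0271 ± 0.0177) and COL4A3 (0.00749 ± 0.00728), the partners of COL4A5 in the mature filtration barrier, were lower still, with 7 to 33 and 0 to 6 counts per library.

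With actD at 72 h, no collagen gene passed the threshold in RNA: 0 of 31 tested genes had an adjusted p under 0.05 in edgeR's quasi-likelihood test, where 0.00472% of all 21195 genes tested (a single gene) did. The adjusted p of the collagens was at least 0.235. At an unadjusted p under 0.05, 6 of 31 collagens were lower with actD and none was higher, against 13.1% of all genes in either direction and 7.78% lower. DESeq2 called 4 of the 31, all lower, among 605 of all genes. All 6 belonged to the other collagens, the largest class with 27 members, and none to the fibrillar or type IV class. Those classes have only 11 and 6 members, not all of them tested. With so few genes and a background of 7.78%, finding none lower is unremarkable. A difference between the classes was not tested. In 7 of 31 the arms did not overlap, against 20.9% of all genes. The share without overlap, in both directions together, was near the background. The share lower at an unadjusted p under 0.05 was above its background of 7.78%, and that excess was not tested. The median log2 fold change (actD minus DMSO) was -0.03 over the 31 collagens and 0.02 over all genes. In bulk RNA, fewer cells expressing a gene and less RNA per cell cannot be told apart.

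COL14A1, a collagen that sits on the surface of fibrils, had 11.9, 14.1 and 28.3 CPM in the 72 h DMSO libraries and 4.73, 4.62 and 6.88 CPM with actD. Every actD library lay below every DMSO library, with a log2 fold change of -1.74 ± 0.38 (SE) and an adjusted p of 0.235. COL26A1, a small secreted collagen, had 11.7, 15.6 and 9.01 CPM with DMSO and 3.73, 3.98 and 6.01 CPM with actD. Its arms did not overlap either, at a log2 fold change of -1.40 ± 0.31 (adjusted p 0.235). COL23A1, a collagen that spans the cell membrane, was at 0.587, 1.06 and 3.35 CPM with DMSO and 0.0981, 0.222 and 0.324 CPM with actD. Its DMSO libraries spread widely, from 22 to 231 counts, and its log2 fold change was -2.95 ± 0.74 (adjusted p 0.260). DESeq2 gave COL14A1, COL26A1 and COL23A1 adjusted p-values of 0.00223, 0.00409 and 0.00538. Over 11 alternative settings the adjusted p ran up to 0.653 for each, from 0.00223, 0.00206 and 0.00538.

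COL18A1 RNA stood at 185, 264 and 221 CPM with DMSO and at 96.6, 98.7 and 153 CPM with actD at 72 h. The arms were apart, the log2 fold change was -0.95 ± 0.26, and the adjusted p was 0.265 by edgeR and 0.0481 by DESeq2 (0.0145 to 0.653 over the alternatives). COL18A1 overlaps SLC19A1 and the antisense genes COL18A1-AS1 and COL18A1-AS2 on the opposite strand. SLC19A1 had 516 to 971 counts in the 72 h RNA libraries and COL18A1 6945 to 15239 in those with DMSO. The use of strand in counting is not given in the sources used here. COL8A2 and COL25A1 were also below DMSO in every actD library. COL8A2, of short-chain networks, had 16.1, 14.2 and 21.7 CPM with DMSO and 10.9, 10.4 and 10.2 CPM with actD (log2 fold change -0.72 ± 0.23, adjusted p 0.292). COL25A1, another collagen of the cell membrane, stayed under 1 CPM in all 6 libraries (log2 fold change -0.72 ± 0.30, adjusted p 0.376). COL7A1, which forms the anchoring fibrils under the epidermis, was the 1 tested collagen above DMSO in every actD library, at 1.59, 1.52 and 1.49 CPM against 0.908, 1.22 and 0.406 CPM (log2 fold change 0.87 ± 0.42, adjusted p 0.430). COL8A2, COL25A1 and COL7A1 are named here after their values were seen, as are COL6A3, COL15A1, COL22A1, COL27A1 and COL5A3 below.

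**Figure D2:**
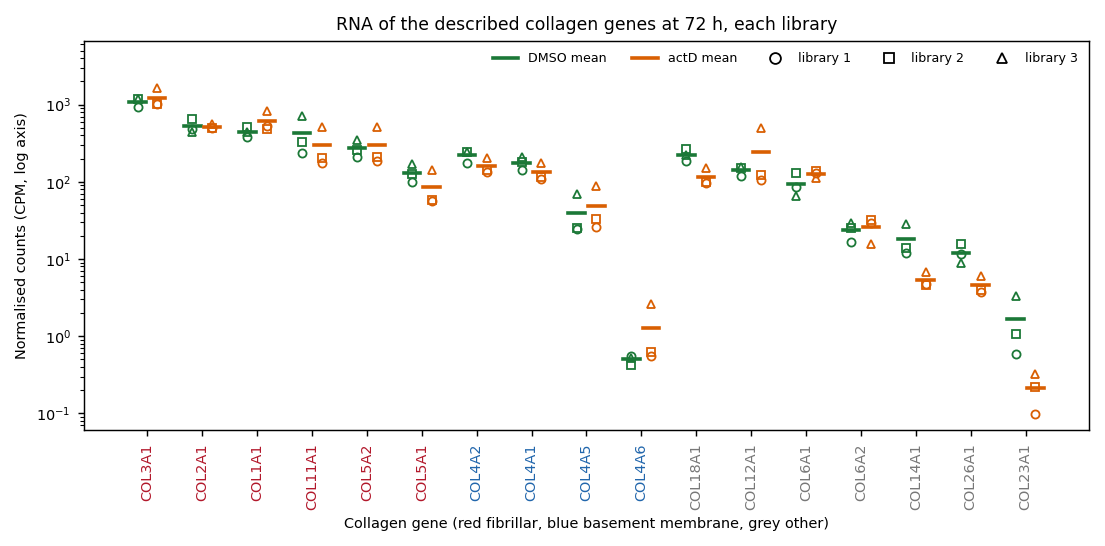
RNA at 72 h in CPM on a log axis for 17 collagen genes, with green for DMSO and orange for actD; symbols mark libraries 1 to 3 and bars the means. COL18A1, COL14A1, COL26A1 and COL23A1 show separate arms, while the fibrillar and type IV genes overlap and library 3 is often the highest of its arm.

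COL3A1 RNA at 72 h was 924, 1166 and 1173 CPM with DMSO and 1009, 1026 and 1648 CPM with actD. The arms overlapped, with a log2 fold change of 0.17 ± 0.27 (adjusted p 0.810) that became -0.10 without library 3 of the actD arm. COL2A1 had 484, 650 and 442 CPM with DMSO and 501, 501 and 555 CPM with actD (log2 fold change -0.02 ± 0.22, adjusted p 0.979). COL1A1 had 380, 509 and 442 CPM with DMSO and 524, 486 and 818 CPM with actD (log2 fold change 0.46 ± 0.27, adjusted p 0.503). These most abundant fibrillar genes thus showed no separation of the arms at 72 h.

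COL11A1 spread more between libraries of an arm than between arms, at 236, 329 and 704 CPM with DMSO and 174, 205 and 507 CPM with actD. Its log2 fold change was -0.52 ± 0.53 (adjusted p 0.699). COL5A1, the chain present in nearly all type V trimers, was at 99.3, 125 and 169 CPM with DMSO and at 56.3, 57.5 and 142 CPM with actD (log2 fold change -0.62 ± 0.40, adjusted p 0.544). COL5A2, its partner, was at 207, 261 and 349 CPM with DMSO and at 186, 208 and 508 CPM with actD (log2 fold change 0.14 ± 0.42, adjusted p 0.901). In both genes library 3 was the highest of its arm, and the ratio of the partners was steadier than either gene. COL5A2 over COL5A1, per kilobase, was 3.12 ± 0.0265 with DMSO and 5.25 ± 0.266 with actD at 72 h (SD, n = 3), between 3.09 and 3.14 in the DMSO libraries and between 4.95 and 5.44 in the actD libraries. The ratio was 2.17 ± 0.636 against 2.70 ± 0.316 at 6 h and 1.55 ± 0.189 (named dmso) against 1.79 ± 0.188 (named actd) at 2 weeks, with overlapping groups both times. COL6A1 over COL6A2 was 4.53 ± 0.264 (named actd) against 3.63 ± 0.193 (named dmso) at 2 weeks, without overlap. Its groups overlapped at 6 h (3.06 ± 0.148 with actD, 3.10 ± 0.133 with DMSO) and 72 h (5.32 ± 1.59 and 4.22 ± 1.71). For COL4A5 over COL4A6 the groups overlapped at each time. These pairs were looked at after the values were known. Their ratios are a description with no test and no background from other gene pairs.

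Among type IV genes at 72 h, COL4A1 had 143, 178 and 207 CPM with DMSO and 110, 117 and 176 CPM with actD (log2 fold change -0.39 ± 0.25, adjusted p 0.545). COL4A2 had 175, 243 and 242 CPM with DMSO and 135, 142 and 202 CPM with actD (log2 fold change -0.46 ± 0.24, adjusted p 0.465). Library 3 with actD lay within the DMSO range for both partners. COL4A5 had 24.7, 25.3 and 69.5 CPM with DMSO and 26.0, 32.8 and 88.5 CPM with actD (log2 fold change 0.30 ± 0.57, adjusted p 0.846). COL4A6 had 0.561, 0.420 and 0.521 CPM with DMSO and 0.549, 0.629 and 2.61 CPM with actD (log2 fold change 1.33 ± 0.63, adjusted p 0.423). In both arms library 3 was far above the other libraries for COL4A5, and so was actD library 3 for COL4A6.

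Of the beaded filament chains, COL6A1 had 86.5, 129 and 65.8 CPM with DMSO and 128, 138 and 113 CPM with actD (log2 fold change 0.43 ± 0.27, adjusted p 0.530). COL6A2 had 16.6, 25.3 and 29.6 CPM with DMSO and 29.2, 31.8 and 15.9 CPM with actD (log2 fold change 0.10 ± 0.33, adjusted p 0.912). COL6A3, the third chain of that trimer, had 610, 33 and 1766 counts with DMSO and 203, 20 and 3 counts with actD, which is the widest scatter of any tested collagen within both arms (SD of 2.75 and 2.74 on the log2 scale). Its log2 fold change of -3.28 ± 1.51 (adjusted p 0.411) rests on that scatter. COL12A1 had 119, 152 and 154 CPM with DMSO and 105, 122 and 502 CPM with actD. Its log2 fold change of 0.77 ± 0.58 (adjusted p 0.596) became -0.33 without library 3 of the actD arm. COL15A1, the relative of COL18A1, stayed under 2.3 CPM in all libraries (log2 fold change -1.41 ± 0.70, adjusted p 0.442).

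At 6 h, 0 of 37 collagens passed in RNA by edgeR and 0 by DESeq2, as did 0% of all 22669 genes by edgeR, and 6 had an unadjusted p under 0.05 (2 higher, 4 lower) against 8.21% of all genes. The arms did not overlap for 10 of 37, against 15.8% of all genes. COL14A1, which was lower with actD at 72 h, lay above DMSO in every actD library at 6 h, at 6.75, 6.82 and 7.56 CPM against 5.31, 5.54 and 5.67 CPM (log2 fold change 0.36 ± 0.14, adjusted p 0.584). COL11A1 was also above DMSO, at 195, 186 and 214 CPM against 117, 173 and 164 CPM (log2 fold change 0.39 ± 0.16, adjusted p 0.598). COL18A1 and COL26A1 lay below DMSO at 6 h as at 72 h. COL18A1 had 318, 315 and 350 CPM against 431, 378 and 397 CPM (log2 fold change -0.30 ± 0.12, adjusted p 0.581). COL26A1 had 21.3, 23.0 and 19.8 CPM against 31.3, 28.0 and 25.6 CPM (log2 fold change -0.40 ± 0.12, adjusted p 0.496). COL5A1 was the fibrillar gene with the smallest p at 6 h, at 158, 159 and 175 CPM with actD against 212, 191 and 234 CPM (log2 fold change -0.37 ± 0.12, adjusted p 0.520). COL27A1, a fibrillar collagen of cartilage, had a log2 fold change of -0.47 ± 0.20 (adjusted p 0.597). COL3A1 had 1261, 1375 and 1764 CPM against 989, 1162 and 1474 CPM, with overlapping arms (log2 fold change 0.28 ± 0.19, adjusted p 0.761).

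Whether the actD effect differed between 6 h and 72 h was tested directly in RNA, as a difference of the log2 fold changes (72 h minus 6 h). No collagen passed by edgeR, 0 of 37, where 0.0165% of 24251 genes did. 8 of 37 had an unadjusted p under 0.05, against 8.02% of all genes. The smallest p was that of COL14A1, at -2.12 ± 0.42 (adjusted p 0.219 by edgeR, 0.00129 by DESeq2, which called this collagen alone, and 0.00129 to 0.507 over the alternatives). COL23A1 followed at -2.83 ± 0.87, COL26A1 at -1.01 ± 0.33, COL25A1 at -1.18 ± 0.45, COL8A2 at -0.73 ± 0.27 and COL18A1 at -0.67 ± 0.30, with adjusted p between 0.478 and 0.611. COL7A1 (1.28 ± 0.50) and COL5A3 (1.80 ± 0.79), a minor chain of type V collagen with 3 to 7 counts in the 72 h DMSO libraries, had positive values, with adjusted p of 0.579 and 0.608.

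**Figure D3:**
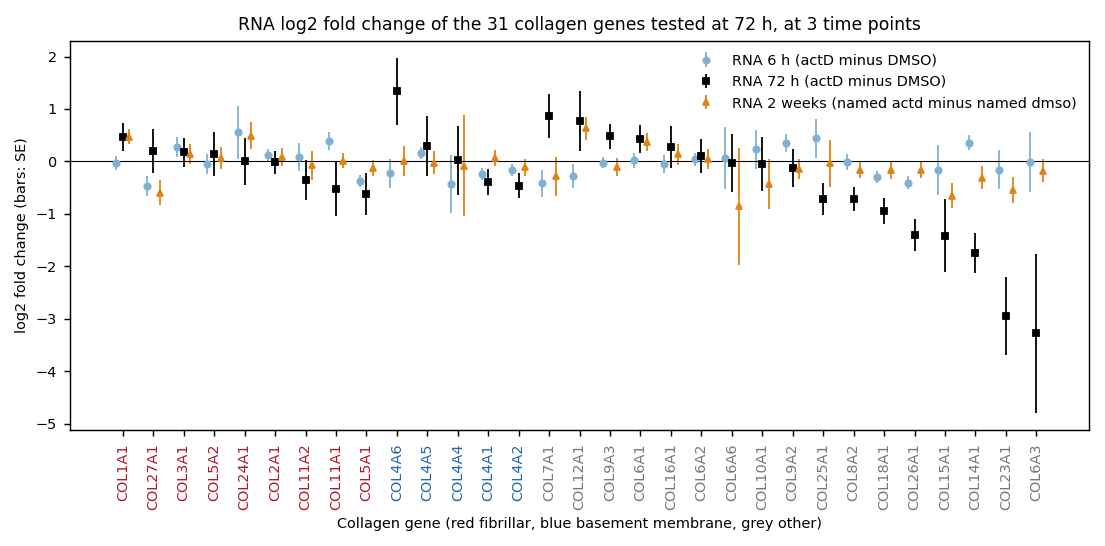
RNA log2 fold change with its SE at 6 h (circles), 72 h (squares) and 2 weeks (triangles, libraries named actd minus named dmso) for the 31 collagen genes tested at 72 h, grouped by class. The 72 h values of fibrillar and type IV genes run from -0.62 (COL5A1) to 1.33 (COL4A6), and the 72 h values of COL18A1, COL26A1, COL14A1 and COL23A1 lie between -0.95 and -2.95, below their 6 h values.

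At 2 weeks, the comparison of libraries named actd with those named dmso gave 0 of 34 collagens past the threshold by edgeR and 0 by DESeq2, and 0% of all 21137 genes by edgeR. 5 collagens had an unadjusted p under 0.05 (2 higher and 3 lower in the libraries named actd), against 8.93% of all genes, and groups did not overlap for 6 of 34, against 15.7%. COL1A1 lay at 497, 554 and 607 CPM (named actd) and at 413, 436 and 346 CPM (named dmso), with no overlap (log2 fold change 0.47 ± 0.14, adjusted p 0.436). COL12A1 had 85.6, 59.0 and 79.4 CPM against 44.4, 62.6 and 37.5 CPM (log2 fold change 0.63 ± 0.21, adjusted p 0.508). COL22A1, found at tissue junctions, COL15A1 and COL27A1 had log2 fold changes of -0.78 ± 0.27, -0.65 ± 0.24 and -0.60 ± 0.24, with adjusted p of 0.508, 0.512 and 0.526. COL3A1 lay at 4221, 4123 and 4421 CPM (named actd) and at 4420, 4366 and 2817 CPM (named dmso; log2 fold change 0.14 ± 0.19, adjusted p 0.848). Library 3 of those named dmso was the lowest collagen library, with 1 of 34 collagens at its highest of the group there, and without it the COL3A1 value became -0.04. With treatment read from the titles, every sign in this paragraph is the opposite.

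In footprints, collagens were a larger part of the protein-coding signal than in RNA. COL3A1 took 1.08% ± 0.151 of protein-coding footprint counts in the 72 h DMSO libraries and 0.166% ± 0.0257 of protein-coding RNA counts (SD, n = 3), a ratio of 6.51. That ratio was 4.16 at 6 h and 3.52 at 2 weeks (libraries named dmso for RNA). At 72 h COL18A1 had a ratio of 7.53, COL1A1 of 5.49, COL6A2 of 5.42 and COL4A2 of 5.16. COL12A1 had 1.36, COL6A1 1.34, COL2A1 1.00, COL11A1 0.566 and COL5A2 0.362. At 6 h and 2 weeks the ratio was 1.35 and 1.25 for COL18A1, 1.93 and 2.29 for COL1A1, and 1.59 and 1.83 for COL4A2. The order of these ratios is loose. From the lowest to the highest pairing of a footprint with an RNA library at 72 h, COL18A1 ran from 3.36 to 16.4 and COL11A1 from 0.125 to 2.36. Footprint tables hold few counts per gene, and their annotation and counting rules need not be those of the RNA tables. COL4A1 had 0 or 1 footprint count in each library at 6 h and 72 h and 0 to 3 at 2 weeks. COL4A2, at a similar RNA level, had 70 to 250 at 72 h. The 2 genes overlap on opposite strands only at their starts (chr13:110305812-110307233), where counts cannot be assigned without knowing the strand rule. Why COL4A1 had so few footprint counts was not tested. No COL4A1 footprint value is read here, and COL4A2 footprint values carry the same doubt about counting rules. COL14A1 had no footprint count in any library.

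With actD at 72 h, 0 of 11 tested collagens passed in footprints by edgeR and 0 by DESeq2, against 3.79% of 2426 genes by edgeR, with a smallest adjusted p of 0.108. 4 of 11 had an unadjusted p under 0.05 (2 higher and 2 lower), against 27.3% of all genes, and the arms did not overlap for the same 4, against 35.7%. COL1A1 had 989, 919 and 1405 CPM with DMSO and 2734, 1887 and 5422 CPM with actD. All actD libraries lay above all DMSO libraries, with a log2 fold change of 1.60 ± 0.58 (adjusted p 0.130), and these values stood on 113 to 437 counts with DMSO and 694 to 4558 with actD. COL5A2 had 56.6, 46.9 and 24.9 CPM with DMSO and 62.7, 160 and 190 CPM with actD (log2 fold change 1.57 ± 0.52, adjusted p 0.108). Its DMSO values rest on 2 to 25 counts.

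COL5A1, the partner of COL5A2, was apart in the other direction, at 24.9, 36.9 and 87.1 CPM with DMSO and 17.9, 5.44 and 16.7 CPM with actD (log2 fold change -1.47 ± 0.57, adjusted p 0.149). These COL5A1 values rest on 11, 11 and 7 counts with DMSO and 12, 2 and 14 with actD. The footprint ratio COL5A2 over COL5A1, per kilobase, was 0.429 to 3.41 with DMSO and 5.25 to 44.3 with actD. The groups of that ratio did not overlap in footprints or in RNA at 72 h. In footprints the ratio of 44.3 rests on 2 COL5A1 counts and that of 0.429 on 2 COL5A2 counts. COL18A1 had 504, 386 and 1493 CPM with DMSO and 346, 237 and 249 CPM with actD (log2 fold change -1.50 ± 0.61, adjusted p 0.164), below DMSO as in RNA. Over 11 alternative settings the COL18A1 footprint value ran from -1.80 to -0.64. Library 3 of the DMSO arm was the shallowest of the series, with 152556 counts in all, and 3 counts there make 37.3 CPM. It was also the highest of its arm for 9 of 11 tested collagens (81.8%, against 34.0% of all genes tested).

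COL3A1 footprints were at 3079, 2528 and 4017 CPM with DMSO and 4900, 3497 and 3535 CPM with actD (log2 fold change 0.31 ± 0.49, adjusted p 0.707). COL4A2 was at 403, 308 and 871 CPM with DMSO and 373, 277 and 272 CPM with actD (log2 fold change -0.76 ± 0.51, adjusted p 0.358). Over 11 alternative settings its value ran from -1.01 to -0.17. The other 5, COL2A1 (0.30 ± 0.91), COL11A1 (-0.35 ± 0.96), COL12A1 (0.34 ± 0.81), COL6A1 (0.19 ± 0.56) and COL6A2 (0.12 ± 0.83), had log2 fold changes smaller than their SE and adjusted p of at least 0.813. COL2A1 shows the scatter: its actD libraries had 497, 351 and 26.2 CPM.

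**Figure D4:**
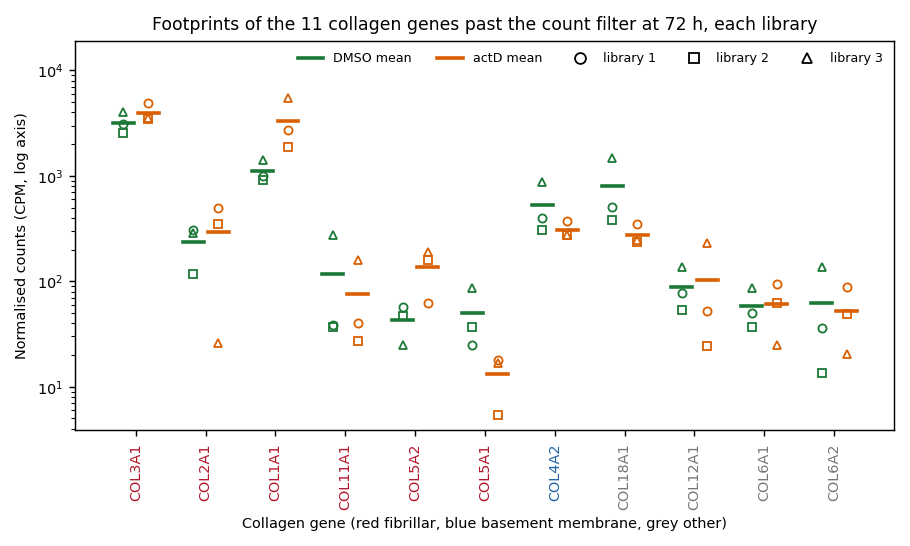
Footprints at 72 h in CPM on a log axis for the 11 collagen genes past the count filter, with green for DMSO and orange for actD; symbols mark libraries 1 to 3 and bars the means. The arms are apart for COL1A1, COL5A2, COL5A1 and COL18A1 and overlap for the rest.

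Translational efficiency, the footprint effect relative to the RNA effect in 1 model over both assays, passed for 0 of 11 collagens at 72 h by edgeR and 0 by DESeq2, against 0.433% of 2311 genes by edgeR, and none had an unadjusted p under 0.05, against 14.9% of all genes. The log2 differences were 1.32 ± 0.72 for COL5A2 (adjusted p 0.414), 1.01 ± 0.59 for COL1A1 (adjusted p 0.444), -0.95 ± 0.77 for COL5A1 (adjusted p 0.579) and -0.67 ± 0.64 for COL18A1 (adjusted p 0.648). So for the 4 collagens whose footprint arms were apart, the difference between the footprint and the RNA effect was within 2 SE of 0. At 6 h, footprints of 0 of 4 collagens passed, with 0% of 1212 genes past the adjusted and 3.14% past the unadjusted threshold. Efficiency at 6 h passed for 0 of 4, with 0% and 5.26% of 951 genes. At 2 weeks, footprints passed for 0 of 9, with 0% and 8.57% of 1598 genes, and efficiency for 0 of 9, with 0% and 5.14% of 1441 genes. No collagen had an unadjusted p under 0.05 in these 4 comparisons, and DESeq2 called none in them.

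COL3A1 footprints were at 640, 547 and 407 CPM with DMSO and 331, 466 and 1081 CPM with actD at 6 h (log2 fold change 0.24 ± 0.77, adjusted p 0.948), with widely overlapping arms. At 2 weeks they were at 2310, 2081 and 934 CPM with DMSO and 2252, 2098 and 2268 CPM with actD (log2 fold change 0.31 ± 0.40, adjusted p 0.808). Only DMSO library 3 was low, and without it the value became -0.03. COL5A2 had the smallest p among the 2-week footprints, at 30.97, 22.5 and 10.6 CPM with DMSO and 18.2, 9.12 and 7.29 CPM with actD (log2 fold change -0.85 ± 0.47, adjusted p 0.591), the opposite sign to 72 h.

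The classes were also compared as shares of all collagen counts in a library, which do not depend on the scaling between libraries. These shares were looked at after values were seen. Type IV genes took 10.8% ± 0.385 of collagen RNA counts with actD and 12.4% ± 1.05 with DMSO at 6 h (SD, n = 3), 8.75% ± 0.281 and 11.1% ± 0.572 at 72 h, and 6.76% ± 0.103 (named actd) and 7.49% ± 0.101 (named dmso) at 2 weeks. In each of these 3 RNA comparisons the groups did not overlap. Most type IV RNA counts came from COL4A1 and COL4A2, with 5369 to 14262 and 6554 to 16697 counts in the 72 h DMSO libraries. COL4A5 had 925 to 4798 counts there. The 72 h fold changes given above were negative for COL4A1 and COL4A2 and positive for COL4A5 and COL4A6. The lower share at 72 h was thus not a fall shared by all type IV genes. In footprints nearly all of the type IV share was COL4A2, with the doubt about its counts given above. The share was 3.72% ± 0.761 with actD and 7.96% ± 1.60 with DMSO at 72 h, without overlap. It overlapped at 6 h (5.31% ± 0.196 against 5.89% ± 0.748) and at 2 weeks (2.90% ± 0.261 against 3.57% ± 0.423). An exact two-sided permutation test gave p = 0.1 for each comparison without overlap, the smallest p that 3 libraries against 3 allow, and 0.36 after Benjamini-Hochberg adjustment over the 36 shares tested.

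**Figure D5:**
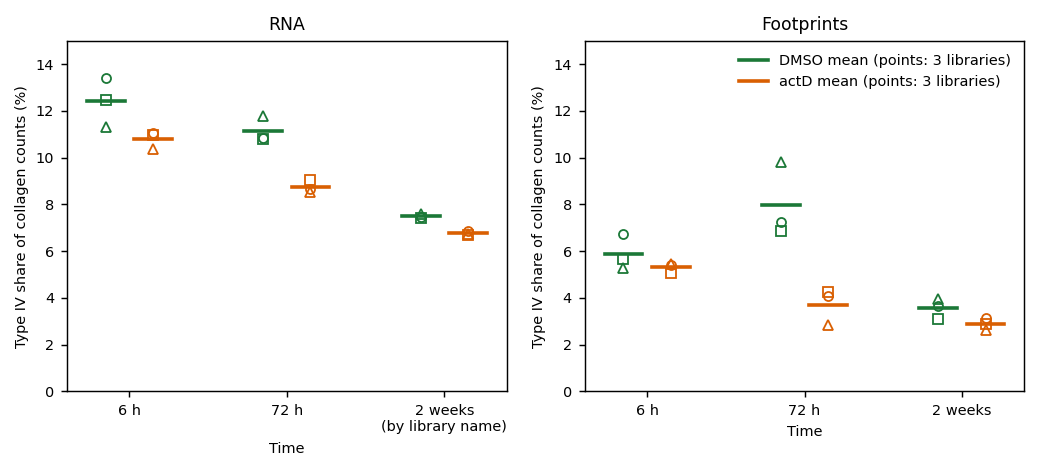
Share of collagen counts taken by the 6 type IV genes, in percent, in RNA (left) and footprints (right) at each time; symbols are the 3 libraries, bars their means. The actD share lies below DMSO without overlap in RNA at 6 h and 72 h and in footprints at 72 h, and so does the share of the libraries named actd at 2 weeks.

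The groups of the fibrillar share did not overlap in RNA at 72 h (77.0% ± 1.05 with actD, 74.0% ± 0.701 with DMSO), in RNA at 2 weeks (80.5% ± 0.441 named actd, 78.5% ± 0.414 named dmso) and in footprints at 72 h (90.2% ± 1.34 and 77.0% ± 7.18). The share of the other collagens was below DMSO without overlap in 72 h footprints too (6.13% ± 0.665 and 15.03% ± 5.57), and in RNA at 2 weeks (12.8% ± 0.500 named actd, 14.02% ± 0.364 named dmso). It overlapped in RNA at 6 h (17.6% ± 1.80 with actD, 20.6% ± 1.71 with DMSO) and 72 h (14.2% ± 1.16 and 14.9% ± 1.27). At 6 h the RNA groups overlapped (71.6% ± 2.16 and 67.0% ± 2.75, exact permutation p = 0.2). A share is relative: at 72 h the CPM of COL4A1 and COL4A2 overlapped between arms while the share did not. The collagens together took 0.675% ± 0.200 of protein-coding RNA counts with actD and 0.595% ± 0.111 with DMSO at 72 h (exact permutation p = 0.7), and 2.39% ± 0.605 and 2.11% ± 0.522 of footprint counts (exact permutation p = 0.6).

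The genes that make, secrete, bind and remove collagen were read from 6 lists, and no gene of them passed the threshold in RNA or footprints at any time by edgeR. Of the 17 enzymes and chaperones that modify procollagen, 17 were tested in RNA at 72 h and none had an unadjusted p under 0.05, against 13.1% of all genes (5.27% higher and 7.78% lower), the shares against which the counts of all 6 lists in 72 h RNA are to be read. Their median log2 fold change was -0.14, and the 3 smallest p belonged to P4HA2 (-0.57 ± 0.30), P4HB (-0.31 ± 0.19) and P3H1 (0.23 ± 0.16), with adjusted p of 0.476, 0.521 and 0.580. In footprints 8 were tested, 3 of them higher at an unadjusted p under 0.05, where 14.2% of all genes tested were higher and 27.3% passed in either direction. Their median was 0.80, and that of all genes 0.07. These were P3H4, CRTAP and P3H1, members or partners of the prolyl 3-hydroxylase complex, named after their values were seen, with log2 fold changes of 2.01 ± 0.59, 1.26 ± 0.46 and 0.93 ± 0.37 and adjusted p of 0.0847, 0.132 and 0.161. Their DMSO libraries held 0 to 10, 2 to 9 and 2 to 10 counts.

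Among 18 genes of secretion, propeptide cleavage and crosslinking, 17 were tested in RNA at 72 h, with 2 higher and 3 lower at an unadjusted p under 0.05. SEC23A and SEC13, subunits of the COPII coat that carries procollagen out of the endoplasmic reticulum, had log2 fold changes of -1.09 ± 0.24 (adjusted p 0.235) and -0.87 ± 0.22 (adjusted p 0.263). SEC23A RNA was between 150 and 193 CPM with DMSO and between 69.0 and 105.6 CPM with actD. LOXL1, a crosslinking oxidase, was at 0.81 ± 0.20 (adjusted p 0.257). PCOLCE, an enhancer of propeptide cleavage named after its values were seen, had 0 to 52 footprint counts with DMSO and 195 to 472 with actD at 72 h (log2 fold change 3.601 ± 1.22, adjusted p 0.115), while its RNA was at 149 ± 16.1 CPM with DMSO and 193 ± 62.1 CPM with actD.

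Of 15 basement membrane partners all were tested in RNA at 72 h, with 1 higher and none lower at an unadjusted p under 0.05. That 1 was LAMB2, a laminin chain, at 0.81 ± 0.22 in RNA (adjusted p 0.265) and 1.49 ± 0.49 in footprints (adjusted p 0.106). Next came LAMA4 (1.01 ± 0.45) and LAMA3 (-0.81 ± 0.37), other laminin chains, with adjusted p of 0.399 and 0.406. Of 10 collagen receptors, 7 were tested and ITGA1 was higher at an unadjusted p under 0.05 (log2 fold change 0.70 ± 0.27, adjusted p 0.340), followed by DDR2 (-0.79 ± 0.53) and ADGRG1 (-0.41 ± 0.37). Of 16 genes of collagen degradation and its inhibitors, 11 were tested, 10 of them with a negative log2 fold change, against 48.6% of all genes, and 1 (TIMP2, an inhibitor of matrix proteases, -0.77 ± 0.21, adjusted p 0.265) past an unadjusted p of 0.05. MMP15 (-0.90 ± 0.43) and TIMP3 (-0.97 ± 0.61) had the next smallest p. Of 14 regulators of the TGF-beta pathway and connective tissue, all were tested, with 2 higher and 1 lower: TGFB3 (0.87 ± 0.28, adjusted p 0.293), FN1 (1.22 ± 0.48, adjusted p 0.354) and SMAD3 (-0.64 ± 0.19, adjusted p 0.281). FN1, fibronectin, was between 46.6 and 164 CPM with actD and between 31.3 and 43.8 CPM with DMSO.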

How the data were processed

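The authors deposited expected counts per gene in 6 tables, RNA and footprints at 6 h, 72 h and 2 weeks, with 18 RNA and 18 footprint libraries; HISAT2, StringTie and hg38 are named in the submitters' processing notes, and the annotation, strand setting and trimming are not given in the sources used here. RNA came from Direct-zol or miRneasy kits and stranded total RNA libraries, and footprints from small RNA libraries after rRNA depletion, per the labels' protocols. Values were whole and were used as deposited. Identifiers were matched to GENCODE release 29 (99.4% of RNA table rows). Each time and assay was fitted alone with edgeR 4.0.16 (R 4.3.3): filterByExpr, TMM, quasi-likelihood test, Benjamini-Hochberg over all genes tested, threshold 0.05. Efficiency used an assay-by-treatment interaction with TMM within each assay. SE is the log2 fold change divided by the root of F. The script was tested on simulated counts. DESeq2 1.42.0 and the other alternatives are in the closing section.

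Members and lists were chosen with earlier results of these data known. Genes are described in full if called in any comparison, among the 4 highest levels or 3 smallest 72 h RNA p of their class, or tested in 72 h footprints; partner chains may stand beside them, and each other list names its 3 smallest 72 h RNA p. At 2 weeks the RNA groups follow the library names. In the labels, same-numbered libraries share a number only, and whether they were prepared together is not stated.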

Additional observations from a re-analysis of the deposited data

How the results depend on the processing

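No collagen was called in 10 comparisons by edgeR, and this count stayed at 0 under each alternative run except 3. In RNA at 72 h, DESeq2 called 4 collagens (COL14A1, COL18A1, COL23A1 and COL26A1, all lower) and a single fit over the RNA libraries of all times called 5 (the same 4 and COL8A2); those settings called 605 and 1212 of all genes, where edgeR called 1 at 72 h alone. DESeq2 also called 1, COL14A1, in the 72 h against 6 h test, among 158 genes. The cause of these differences was not tested.

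Some fold changes without a call turned sign. With library totals in place of TMM, COL3A1 became -0.35 in 6 h footprints and -0.0221 in 2-week RNA, and COL11A1 0.23 in 72 h footprints. COL6A2 became -0.0355 in 72 h footprints with DESeq2. COL2A1 in 72 h RNA became 0.00956 in the single fit over all times. With treatment from the titles, 2-week RNA gave COL3A1 -0.14, COL1A1 -0.47, COL12A1 -0.63, COL15A1 0.65, COL22A1 0.78 and COL27A1 0.60. Without COL3A1, the type IV share in 6 h footprints became 0.804 points higher with actD.

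Leaving out 1 library at a time moved the median collagen log2 fold change in 6 h RNA between -0.11 and 0.0433. In 72 h RNA it moved COL3A1 between -0.10 and 0.29, COL2A1 between -0.13 and 0.16, COL11A1 between -1.16 and 0.0583, COL5A2 between -0.47 and 0.39, COL4A5 between -0.44 and 0.97, COL6A2 between -0.12 and 0.35 and COL12A1 between -0.33 and 1.12. In 72 h footprints it moved COL2A1 between -0.26 and 0.96, COL11A1 between -1.23 and 1.06, COL12A1 between -0.91 and 0.81, COL6A1 between -0.26 and 0.71 and COL6A2 between -0.50 and 1.05, and the efficiency of COL18A1 between -0.97 and 0.13. COL3A1 moved between -0.39 and 0.48 in 6 h footprints, between -0.0407 and 0.24 in 2-week RNA and between -0.0281 and 0.54 in 2-week footprints.

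The replicate block called no collagen in any comparison. Under it COL2A1 became 0.000996 in 72 h RNA and -0.12 in 72 h footprints, and COL12A1 -0.28 in 72 h footprints. Correlations of deviations between same-numbered libraries were 0.085, 0.226 and 0.150 in 72 h RNA and -0.710, -0.0380 and -0.745 in 6 h footprints. Between libraries of different numbers they ran from -0.152 to -0.024 in 72 h RNA and from -0.571 to 0.823 in 6 h footprints. No treatment comparison had all 3 same-numbered values above 0.1. Between RNA and footprints the same-numbered values were 0.174, 0.197 and 0.430 with actD at 72 h, all above 0.1. With DMSO they were 0.157, 0.0877 and 0.191, so the numbers were not taken as pairs. A value under 0.1 does not show that libraries were unpaired.

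Footprint depth limits the genes that can be tested: 4, 11 and 9 of 44. The class shares per kilobase and without COL3A1 were chosen after seeing the data; the type IV share kept its arms apart in RNA at each time and in 72 h footprints under both. With a few libraries per group, adjusted p-values above 0.05 do not show that levels were equal.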
